A study of Sus scrofa with 63 samples.

Results

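The liver of piglets at 28 days post natum (28 dpn), the age at which the study weaned its animals, was set against 3 other stages at once: fetuses at 94 days post conceptionem (94 dpc), newborns at 1 dpn and finished pigs at 188 dpn. All animals were German Landrace offspring of gilts fed a gestational high protein diet (HP offspring). Of the 63 arrays, 15 held liver RNA of 28 dpn animals, chosen by the stage given in the labels, and 16 arrays each held RNA of 94 dpc, 1 dpn and 188 dpn animals, with 1 animal per array. Per stage the offspring of 8 gilts were sampled, mostly as sib pairs, and the labels give neither mother nor sex, so the p-values treat litter mates as independent. From the methods, 28 dpn and 188 dpn pigs were killed by electronarcosis after an overnight fast, 1 dpn piglets by injection, and fetuses likewise by injection at Caesarean section in a separate experiment. Animals sampled at 28 dpn and 188 dpn had been cross-fostered after birth to sows on an adequate protein diet, and their males castrated. Those sampled at 1 dpn had been neither fostered nor castrated. Light and heavy litter mates were picked on purpose at 94 dpc and 1 dpn only. In the methods 28 dpn was the day of weaning and the post-weaning diet started only afterwards, so the 28 dpn piglets had not been fed it. No array holds a piglet of this age that was left with the sow for longer, so age and the day of weaning cannot be told apart. Offspring of gilts on the adequate diet were not analysed here.

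The liver changes its work around weaning, when milk is replaced by solid feed and the antibodies received from colostrum and milk wane. Besides making plasma proteins and handling nitrogen, fat and iron, the organ filters blood from the gut through sinusoids lined by endothelial cells and Kupffer cells, its resident macrophages. Interferons are secreted proteins that switch on a common set of antiviral genes in most cell types, and hepcidin, the peptide hormone encoded by HAMP, blocks the export of iron into plasma.

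Values are log2 signals of Affymetrix probe-sets, so a difference of 1 is a 2-fold difference. A probe-set was called a 28 dpn peak when its mean at 28 dpn lay above all 3 other stage means, and a trough when it lay below all 3, each time with the weakest of the 3 limma contrasts at an adjusted p under 0.05. The size of a peak or trough is the mean at 28 dpn minus the nearest other stage mean, given with the standard error (SE) of that contrast. A probe-set entered the test if its signal exceeded the array median in at least 50% of the animals of any stage, and 13844 of 23935 did. Background is the level that 95% of the 23 probe-sets for which the pig holds no target stayed under, taken array by array. Probe-sets with 1 gene symbol represented 5504 genes, each by its probe-set of the highest mean.

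At 28 dpn 318 probe-sets peaked (2.3% of those tested) and 99 formed a trough (0.715%). A size of at least 2-fold was reached by 57 peaks (0.412%) and 11 troughs (0.0795%). In genes, 178 peaked (3.23%) and 32 formed a trough (0.581%), of which 36 peaks (0.654%) and 2 troughs (0.0363%) reached 2-fold. The median size was 0.63 for peaks and -0.60 for troughs. The nearest stage was 188 dpn for 213 of the 318 peak probe-sets, 1 dpn for 68 and 94 dpc for 37. For troughs it was 188 dpn in 73 cases, 1 dpn in 18 and 94 dpc in 8. No gene was called in both directions. Of the probe-sets tested, 125 passed the filter on level through 28 dpn alone and so had to be higher there, and 11 of these were among the peaks. Of the genes described below, SIGLEC1, SLA-7 and SLC22A3 are of this kind, so that their being higher at 28 dpn is a description. Close to the threshold, LAPTM5 and FAM219A were called at adjusted p values of 0.0479 and 0.0484, and TNFRSF21 and PSMB3 were not, at 0.0518 and 0.0526 (limma).

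**Figure D1:**
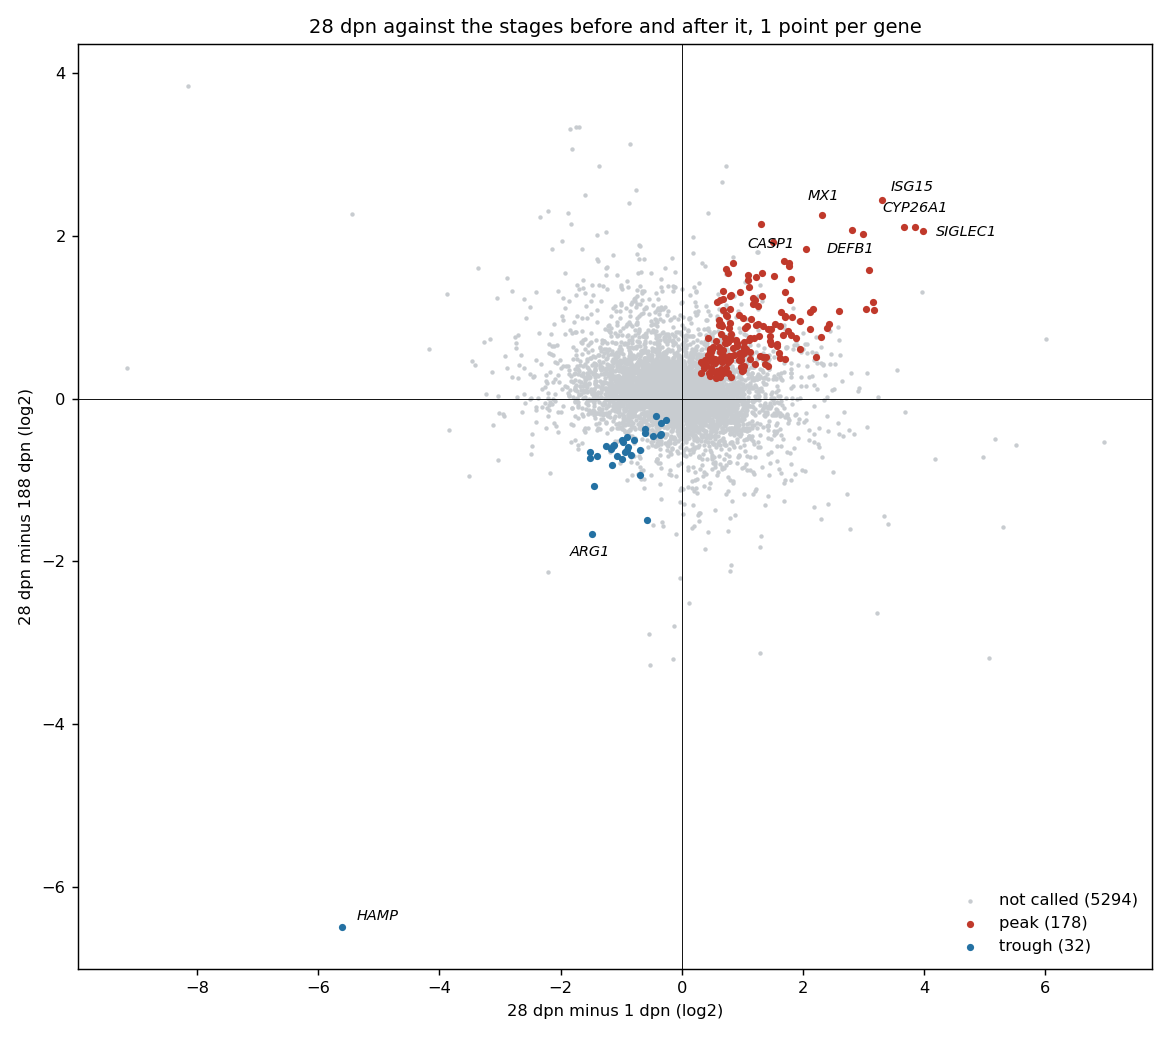
Difference of the stage means, 28 dpn minus 1 dpn (x axis, log2) and 28 dpn minus 188 dpn (y axis, log2), with 1 point for each of the 5504 genes; red points are the 178 peaks, blue points the 32 troughs, and grey points the genes not called. ISG15, MX1, DEFB1, CYP26A1 and SIGLEC1 are among the genes that lie more than 2 log2 units above both stages, and HAMP lies alone more than 5 units below both.

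Array quality moved with the stage. The difference between the 3′ and 5′ probe-sets of RNAs added before labelling was 0.74 to 1.88 at 28 dpn (median 1.32), against 0.04 to 0.28 at 94 dpc (median 0.14), 0.85 to 1.20 at 1 dpn (median 1.02) and 0.57 to 1.61 at 188 dpn (median 0.82). The same difference for beta-actin had medians of 3.70 at 28 dpn, 2.25 at 94 dpc, 1.57 at 1 dpn and 4.12 at 188 dpn. With the added-RNA difference as a covariate 218 peaks and 81 troughs were called, and with the actin difference 165 and 40. The median difference over all probe-sets tested was -0.31 against 94 dpc, -0.16 against 1 dpn and 0.08 against 188 dpn as deposited, and within 0.08 of 0 for each stage after quantile normalization or centring. Expression of a gene in bulk liver RNA cannot tell apart fewer cells of a type from less RNA per cell. The 26 measured genes of secreted hepatocyte proteins were above background at every stage, with a mean log2 signal of 14.52 to 15.18 at 28 dpn, 14.81 to 15.20 at 94 dpc, 14.53 to 15.18 at 1 dpn and 14.50 to 15.36 at 188 dpn. Of these, 0 were called in limma, with 2 at an unadjusted p under 0.05, both as troughs. The lowest mean was at 28 dpn in 12 of the 26, which is 46.2% beside 13.5% of all genes. The highest mean was there in 0 of the 26, beside 21.0% of all genes.

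Genes of the type I interferon response were the leading group at 28 dpn. Of 36 measured genes 15 peaked and 0 formed a trough, which is 41.7% of the list beside 3.23% of all genes tested, and 28 of the 36 had their highest stage mean at 28 dpn, which is 77.8% beside 21.0% of all genes. The median difference of the list was 1.49 against 94 dpc, 1.04 against 1 dpn and 0.96 against 188 dpn, where the medians of all genes were -0.08, -0.02 and 0.09. Of the 36 genes that peaked by at least 2-fold, 9 were in this list, which held 36 of the 5504 genes tested.

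The largest named peak was ISG15, a ubiquitin-like protein that is joined to other proteins after interferon exposure. Its log2 signal was 11.52 to 14.57 at 28 dpn (median 13.23), against 4.78 to 11.44 at 94 dpc (median 8.12), 7.63 to 11.32 at 1 dpn (median 10.02) and 9.92 to 11.47 at 188 dpn (median 10.56). All 15 arrays of 28 dpn lay above all 48 arrays of the other stages. The mean at 28 dpn was 2.44 above the nearest stage (SE 0.39, 5.43-fold, adjusted p = 1.49e-05). USP18, the protease that removes ISG15 from its targets, peaked by 1.83 (SE 0.28, adjusted p = 5.95e-06), with 9 of 15 arrays at 28 dpn above every other array.

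MX1, a GTPase that blocks the replication of viruses, had a log2 signal of 10.51 to 13.12 at 28 dpn (median 11.91), against 6.20 to 11.32 at 94 dpc (median 7.99), 7.19 to 11.25 at 1 dpn (median 9.52) and 8.14 to 10.85 at 188 dpn (median 9.79). In 10 of 15 arrays at 28 dpn it lay above every array of the other stages, and 8 arrays of those stages fell inside the 28 dpn range. The peak was 2.25 (SE 0.37, 4.77-fold, adjusted p = 2.51e-05). ISG12(A), an interferon-inducible membrane protein, averaged 14.21 at 28 dpn, against 10.28 at 94 dpc, 10.36 at 1 dpn and 12.11 at 188 dpn, a peak of 2.10. IRF7, the transcription factor that drives interferon genes, averaged 9.30 at 28 dpn, against 6.15, 6.31 and 7.28 at 94 dpc, 1 dpn and 188 dpn, and lay above background on 4 of 16 fetal arrays.

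Other antiviral effectors and sensors peaked with smaller sizes. ZBP1, a sensor of foreign nucleic acid, was higher by 1.67 (SE 0.31, adjusted p = 1.63e-04). In 10 of 15 arrays at 28 dpn ZBP1 lay above every other array, but 32 arrays of the other stages fell inside its 28 dpn range. RSAD2, an antiviral enzyme of the endoplasmic reticulum, was higher by 1.63 (SE 0.32, adjusted p = 5.23e-04). ISG20, an exonuclease that degrades RNA, was higher by 1.50, and IFIT3, which binds viral RNA in a complex with its relatives, by 1.46. The remaining called members, IFI44L, XAF1, IFIT2, IFI35, PARP9 and IRF1, had sizes of 0.57 to 0.79. RSAD2, ISG20, IFIT2, IFI44L, PARP9 and IRF1 were not called with the actin covariate, and the other 9 were.

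The rest of the list stayed below the threshold. GBP1, a GTPase directed against intracellular microbes, averaged 10.51 at 28 dpn, against 7.47 at 94 dpc, 9.25 at 1 dpn and 8.71 at 188 dpn (adjusted p = 0.0681). CXCL9, a chemokine for T cells, averaged 9.47 at 28 dpn, against 7.93, 6.89 and 8.59 at 94 dpc, 1 dpn and 188 dpn (adjusted p = 0.0999). OAS1, IRF9 and IFIT1 had their highest mean at 28 dpn without passing the test, at 10.68, 10.25 and 9.25. EIF2AK2 and STAT2 did not have their highest mean there, with 7.93 and 10.72 at 28 dpn and maxima of 9.53 at 1 dpn and 10.86 at 94 dpc. These members were chosen after their values were seen.

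**Figure D2:**
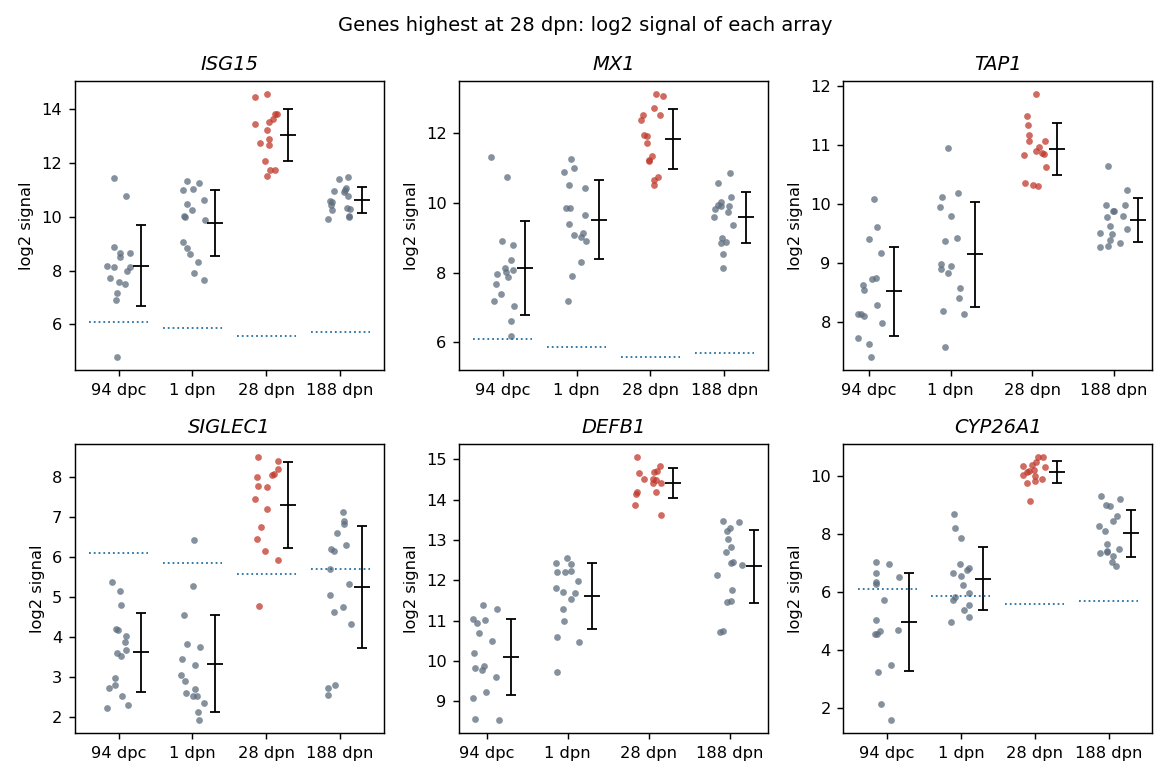
Log2 signal of 6 genes that peaked at 28 dpn, with 1 point per array by stage (red, 28 dpn; grey, other stages), the mean with its SD beside the points, and the median background of the stage as a dotted line where it lies near the data. All 28 dpn arrays of ISG15 and DEFB1 lie above every other array, whereas MX1, TAP1, SIGLEC1 and CYP26A1 overlap partly with other stages.

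The interferon genes varied together among the 28 dpn piglets. Relative to the 28 dpn mean of each gene, array 5 was higher in 15 of the 15 called genes and array 14 in 14, with mean deviations of 1.01 and 0.76. Array 6 was lower in all 15 genes and array 10 likewise, with mean deviations of -0.90 and -0.61, and array 9 was above the mean in 1 gene. The share of all probe-sets above their mean on these arrays was not counted. The median signal of the whole array was 6.78 and 6.91 on arrays 5 and 14, and 7.01, 6.83 and 6.81 on arrays 6, 9 and 10. For ISG15 arrays 5 and 14 had log2 signals of 14.45 and 14.57, and arrays 6, 9 and 10 had 11.52, 11.76 and 11.75. The lowest of these still lay above every array of the other stages. For the RNAs added before labelling, arrays 5 and 14 had 3′ to 5′ differences of 0.85 and 0.92, and arrays 6, 9 and 10 had 1.32, 1.35 and 1.82. For actin the differences were 3.45 and 3.22 on arrays 5 and 14, and 4.01, 4.02 and 3.92 on arrays 6, 9 and 10. For the added RNAs, arrays 1, 8 and 13 had 0.74, 1.35 and 1.88, with mean deviations of -0.51, 0.53 and 0.35. Arrays 2, 3, 7 and 12 had 0.85, 0.98, 1.33 and 1.87, with mean deviations of 0.18, 0.32, -0.28 and -0.39. Arrays 4, 11 and 15 had 0.79, 1.75 and 0.93, with mean deviations of 0.08, 0.05 and 0.04. For actin, arrays 1, 8 and 13 had 3.44, 3.84 and 3.87, arrays 2, 3, 7 and 12 had 3.15, 3.41, 3.70 and 4.00, and arrays 4, 11 and 15 had 3.50, 3.91 and 3.39. The part of either measure in the spread between piglets was not tested.

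**Figure D3:**
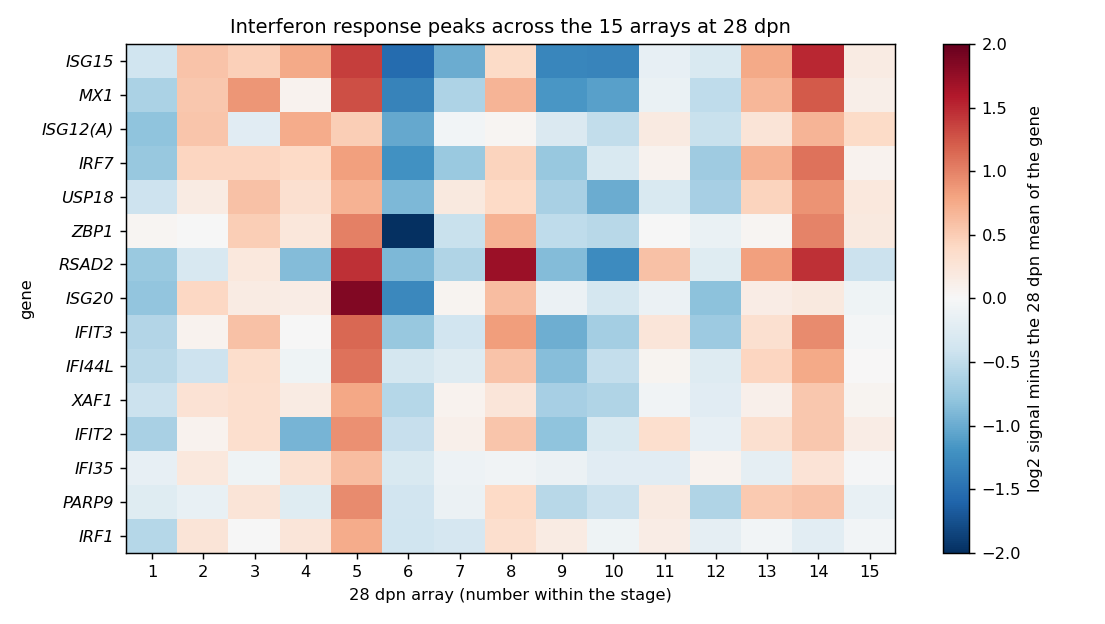
Log2 signal of the 15 called interferon response genes (rows, in order of peak size) on each of the 15 arrays at 28 dpn (columns, numbered within the stage), as the deviation from the 28 dpn mean of the gene; red is higher and blue lower. Arrays 5 and 14 are red in nearly all rows, and arrays 6, 9 and 10 are blue in nearly all.

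Genes of antigen presentation peaked as well. Of 23 measured genes of antigen presentation 6 peaked (26.1% beside 3.23% of all genes) and 0 formed a trough. Their highest mean was at 28 dpn in 18 genes, which is 78.3% beside 21.0% of all genes. TAP1, a subunit of the pump that carries peptides into the endoplasmic reticulum, had a log2 signal of 10.31 to 11.87 at 28 dpn (median 10.91), against 7.41 to 10.09 at 94 dpc (median 8.42), 7.58 to 10.96 at 1 dpn (median 8.97) and 9.28 to 10.65 at 188 dpn (median 9.71). Only 2 arrays of the other stages reached into the 28 dpn range, and the peak was 1.21 (SE 0.23, adjusted p = 2.97e-04). PSMB8, a catalytic subunit of the immunoproteasome, peaked by 1.09 (SE 0.28, adjusted p = 0.0128), and 20 arrays of the other stages lay inside its 28 dpn range. PSME2, a subunit of the proteasome activator that interferon induces, peaked by 0.73, PSMB10, another immunoproteasome subunit, by 0.63, and TAPBP, which loads peptides on class I molecules, by 0.46. SLA-7, a class I gene of the pig that passed the filter on level through 28 dpn alone, was higher by 0.79 at a signal of 7.39 on average. With the actin covariate 3 of the 6, PSMB8, PSMB10 and SLA-7, were not called, and PSMB8 was not called with the added-RNA covariate either.

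Other members of the list were not called. B2M, the light chain of class I molecules, averaged 15.27 at 28 dpn, against 16.06 at 94 dpc, 15.20 at 1 dpn and 15.21 at 188 dpn. CD74, the chaperone of class II molecules, averaged 9.48 at 28 dpn, against 9.57 at 94 dpc, 9.28 at 1 dpn and 8.96 at 188 dpn. Both were chosen after their values were seen. CALR, a chaperone of the endoplasmic reticulum that also takes part in peptide loading, peaked by 0.77 (SE 0.12, adjusted p = 4.75e-06) and was the only one of 42 measured chaperones to be called.

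Macrophage genes formed the third group. Of 28 measured genes of macrophages and Kupffer cells 10 peaked (35.7% beside 3.23% of all genes) and 0 formed a trough. The highest mean was at 28 dpn in 20 genes, which is 71.4% beside 21.0% of all genes. All 28 were above background on at least 50% of the 28 dpn arrays. Averaged over the 28 genes, the log2 signal was 10.60 to 11.14 at 28 dpn (median 10.96), against 7.05 to 9.76 at 94 dpc (median 9.28), 9.18 to 10.51 at 1 dpn (median 9.77) and 9.95 to 10.58 at 188 dpn (median 10.24). The lowest 28 dpn array lay just above the highest array of 188 dpn. Macrophages also make interferon response genes, and how far their rise enters the counts of the interferon and antigen presentation lists was not tested.

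SIGLEC1, a sialic acid receptor of macrophages that interferon induces, had the highest size of the group, but passed the filter on level through 28 dpn alone. Its log2 signal was 4.77 to 8.52 at 28 dpn (median 7.76), against 2.20 to 5.39 at 94 dpc (median 3.63), 1.92 to 6.43 at 1 dpn (median 2.97) and 2.54 to 7.14 at 188 dpn (median 5.51). SIGLEC1 exceeded background in 14 of 15 piglets at 28 dpn, against 0 of 16 fetuses at 94 dpc, 0 of 16 newborns and 7 of 16 pigs at 188 dpn. With the dim arrays set to their background, the 28 dpn mean was at least 2.30-fold higher than 94 dpc and at least 2.77-fold higher than 1 dpn, and the fitted size over 188 dpn was 2.06 (SE 0.43). With all values below background raised to it, the size was 1.21.

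The other called members included receptors, adaptors and attractants. CCL2, the chemokine that draws monocytes, peaked by 1.18 (SE 0.20), ITGB2, the shared chain of leukocyte integrins, by 1.02 (SE 0.17), and C1QA, a chain of complement C1q made by macrophages, by 0.98 (SE 0.20). CD53, CYBA, FCER1G, AIF1, VSIG4 and LAPTM5 peaked by 0.61 to 0.91, of which LAPTM5 was called in 22 of the 63 fits without 1 array. FCER1G, VSIG4 and LAPTM5 were not called with the actin covariate, nor was LAPTM5 with the added-RNA covariate, after quantile normalization or after centring. VSIG4, the complement receptor of Kupffer cells, had 12.15 on average at 28 dpn, against 9.80 at 94 dpc, 10.26 at 1 dpn and 11.40 at 188 dpn. Several defining markers were not called. CD163, the scavenger receptor for haemoglobin, averaged 11.28 at 28 dpn, against 10.02 at 94 dpc, 11.48 at 1 dpn and 10.31 at 188 dpn, and MARCO 8.15, against 8.12, 7.48 and 5.50. C1QC and TYROBP had their highest means at 28 dpn, 14.71 and 10.82, without passing the test (adjusted p = 0.279 and 0.871).

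T and NK cell genes were not called. Of 12 measured genes 0 passed limma's test after adjustment and 5 had an unadjusted p under 0.05, all as peaks. In 9 of the 12 the highest stage mean was at 28 dpn, beside 21.0% of all genes, and in 0 the lowest. Median differences of the list were 1.33 against 94 dpc, 1.92 against 1 dpn and 0.44 against 188 dpn. All 12 were above background at 28 dpn. CD3D, a chain of the T cell receptor complex, averaged 8.28 at 28 dpn, against 6.96 at 94 dpc, 6.24 at 1 dpn and 7.61 at 188 dpn (adjusted p = 0.366). Of the 5 genes in the list of B and plasma cells the 1 called was PIGR. It is a receptor that carries IgA into bile and does not mark these cells, and it is described with the defence genes. JCHAIN, which joins the units of secreted IgA and IgM, averaged 8.98 at 28 dpn, against 7.25, 6.24 and 10.15 at 94 dpc, 1 dpn and 188 dpn. Of the 11 neutrophil genes only ALOX5AP, which feeds arachidonic acid to leukotriene synthesis, was called, which is 9.09% beside 3.23% of all genes. Its peak was 1.31 (SE 0.18, adjusted p = 1.04e-06), with only 1 other array inside its 28 dpn range. The list as a whole did not peak: 1 of the 11 had its highest mean at 28 dpn. Its median difference was -2.37 against 94 dpc, -0.84 against 1 dpn and 1.04 against 188 dpn. No gene of 13 from red cell precursors, 5 from platelets or 9 from bile duct cells was called in limma, nor did any (0) reach an unadjusted p under 0.05.

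Of 31 measured genes of antimicrobial peptides and mucosal defence 4 peaked and 1 formed a trough, which is 12.9% and 3.23% of the list beside 3.23% and 0.581% of all genes. DEFB1, an antimicrobial beta-defensin of epithelia, had a log2 signal of 13.62 to 15.06 at 28 dpn (median 14.48), against 8.55 to 11.38 at 94 dpc (median 10.04), 9.72 to 12.56 at 1 dpn (median 11.76) and 10.72 to 13.48 at 188 dpn (median 12.43). No array of another stage reached the 28 dpn range. The peak was 2.07 (SE 0.28, 4.20-fold, adjusted p = 7.11e-07). PIGR, the receptor that carries IgA into bile, averaged 9.52 at 28 dpn, against 5.45 at 94 dpc, 6.48 at 1 dpn and 8.42 at 188 dpn. The peak of 1.10 (SE 0.28, adjusted p = 0.0124) was lost with the actin covariate. A further probe-set of PIGR was called too, but passed the filter on level through 28 dpn alone, so that its being higher there is a description. IL10, an anti-inflammatory cytokine, peaked by 0.69 at a signal of 8.08, but not with the actin covariate. CCL2 is given above among the macrophage genes. LEAP2, a further antimicrobial peptide of the liver, averaged 11.84 at 28 dpn, against 11.71, 10.93 and 11.80 at 94 dpc, 1 dpn and 188 dpn, and was not called.

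In all, 18 of the 36 genes with a peak of at least 2-fold were in the lists of interferon response, antigen presentation, macrophages, defence, complement or neutrophils. Among the 18 was SIGLEC1, which passed the filter on level through 28 dpn alone. Of the 5504 genes tested, the lists held 36, 23, 28, 31, 40 and 11 in this order, with shared members counted in each. These lists overlap and were drawn up with results of these data known, so that the count is a description. CFP, or properdin, which stabilises the alternative pathway of complement, peaked by 1.07 (SE 0.19). Of the 15 large peaks in no list, CASP1, the protease that matures interleukin 1 beta, was higher by 1.68 (SE 0.23, adjusted p = 8.10e-07) and CD300C, a receptor of myeloid cells, by 1.58 (SE 0.40, adjusted p = 0.0102). FAM26F, PLAC8, GLIPR1, JAK3, the kinase of cytokine receptors with the common gamma chain, and STX11 peaked by 1.01 to 1.32. CD300C, FAM26F and STX11 were not called with the actin covariate. With ISG15 and DEFB1, SEMA4D was 1 of 3 genes (0.0545%) without overlap. SEMA4D, a semaphorin of lymphocytes, had a log2 signal of 8.53 to 9.25 at 28 dpn, against 6.73 to 8.09 at 94 dpc, 6.84 to 8.33 at 1 dpn and 7.50 to 8.42 at 188 dpn. Among the 13844 probe-sets tested, 7 lay above every other array at 28 dpn (0.0506%) and 1 lay below (0.00722%).

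**Figure D4:**
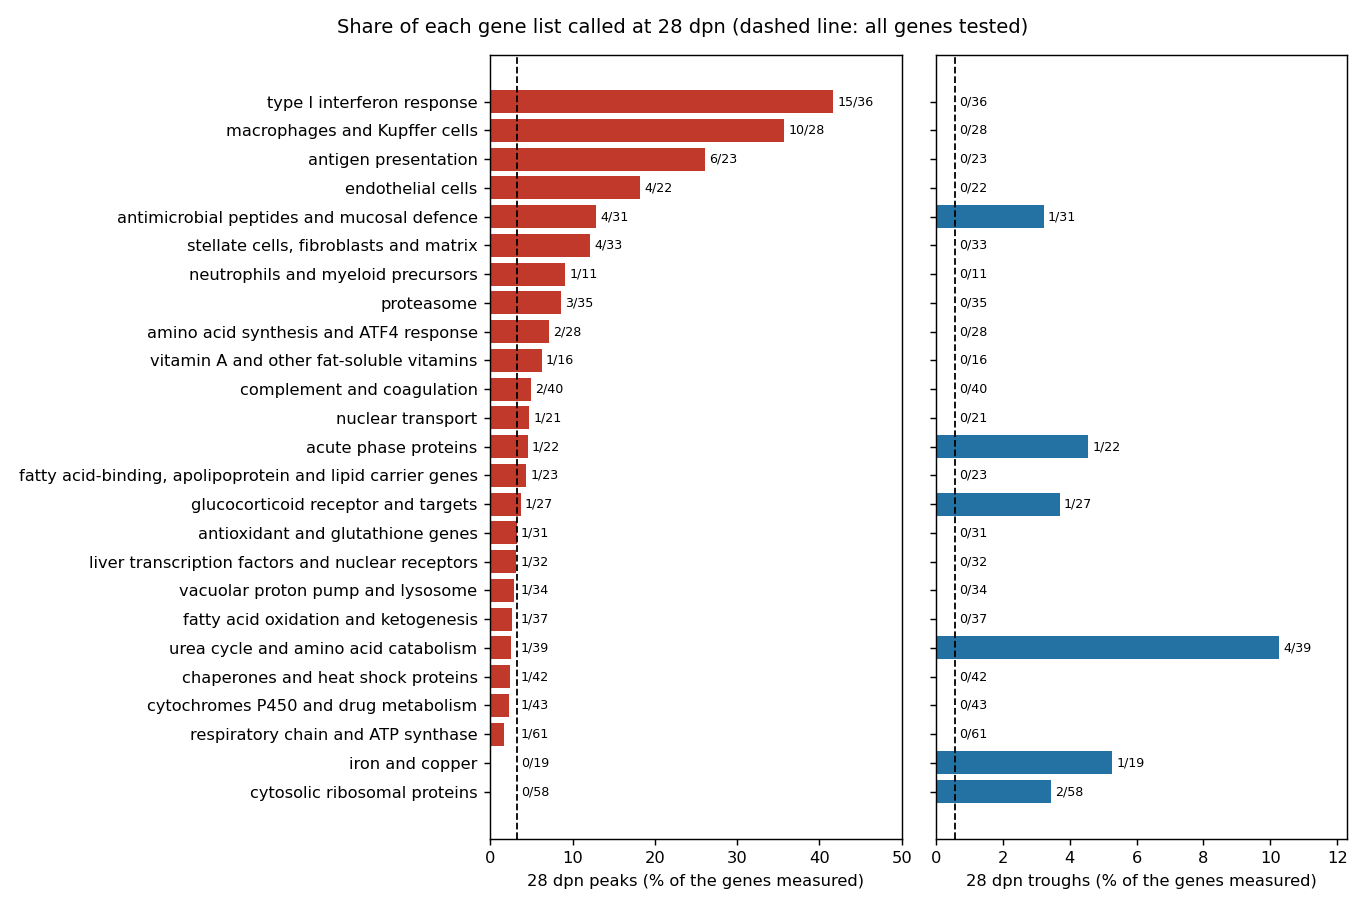
Share of the measured genes of each list that peaked (left, red) or formed a trough (right, blue) at 28 dpn, for lists of at least 10 measured genes with 1 call or more; numbers beside the bars are called over measured genes, and dashed lines mark the shares of all 5504 genes, 3.23% and 0.581%. Interferon response, macrophages and antigen presentation have the longest bars on the left, and urea cycle and amino acid catabolism on the right.

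Vitamin A metabolism contributed a single, large peak. CYP26A1, the cytochrome P450 that degrades retinoic acid, had a log2 signal of 9.12 to 10.65 at 28 dpn (median 10.16), against 1.61 to 7.04 at 94 dpc (median 4.86), 4.98 to 8.67 at 1 dpn (median 6.41) and 6.91 to 9.29 at 188 dpn (median 7.88). In 14 of 15 arrays at 28 dpn it exceeded every other array. The peak was 2.11 (SE 0.39, 4.31-fold, adjusted p = 1.67e-04), and CYP26A1 was above background on 6 of 16 fetal arrays. It was the only one of 43 cytochrome P450 and drug metabolism genes and the only one of 16 genes of vitamin A and related vitamins to be called. CYP3A29 and CYP2E1, major enzymes of drug oxidation, averaged 14.08 and 15.10 at 28 dpn and were highest at 188 dpn, with 14.61 and 15.39. RBP4, the plasma carrier of retinol, averaged 15.16 at 28 dpn, against 15.61 at 94 dpc, 15.16 at 1 dpn and 15.26 at 188 dpn.

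Matrix and vessel wall genes showed smaller peaks, to be read beside the 3.23% of all genes that peaked. Of 33 measured genes of stellate cells, fibroblasts and matrix 4 peaked (12.1%), led by SPARC, a collagen-binding protein, with 0.82 (SE 0.13, adjusted p = 1.23e-05), and MMP14, a membrane-bound collagenase, with 0.79 (SE 0.14). COL4A2, a chain of basement membrane collagen, and COL6A3, a chain of microfibrillar collagen, peaked by 0.56 each. Of 22 endothelial genes 4 peaked (18.2%): RAMP2, a partner of the adrenomedullin receptor, by 0.94 (SE 0.15, adjusted p = 2.33e-05), CDH5, the cadherin of endothelial junctions, by 0.67, ICAM2 by 0.66 and ICAM1 by 0.50, both ligands of leukocyte integrins. MMP14, COL6A3, CDH5 and ICAM1 were not called with the actin covariate, nor was MMP14 with the added-RNA covariate. COL6A3 and CDH5 were not called after centring, nor was COL6A3 after quantile normalization.

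Metabolic peaks were scattered over lists with few other calls. GLUL, glutamine synthetase, which detoxifies ammonia around the central vein, had a log2 signal of 13.53 to 14.44 at 28 dpn (median 13.94), against 11.39 to 13.38 at 94 dpc (median 12.46), 11.82 to 13.57 at 1 dpn (median 12.86) and 11.52 to 14.05 at 188 dpn (median 12.39). Only 3 other arrays reached into its 28 dpn range. The peak was 1.10 (SE 0.18, adjusted p = 1.79e-05), and with the actin covariate the difference to the nearest stage was -0.0011. GLUL was called with neither covariate. Of the 2 probe-sets of GLUL 1 was called. ATF5, a transcription factor of the stress response to amino acid shortage, peaked by 1.30 (SE 0.28, adjusted p = 2.04e-03), whereas DDIT3 and ASNS, targets of the related factor ATF4, were not called. DDIT3 averaged 9.02 at 28 dpn, against 8.96 at 94 dpc, 8.98 at 1 dpn and 9.02 at 188 dpn. ASNS averaged 9.03 at 28 dpn, against 13.26, 12.91 and 7.75 at these stages. SLC22A5, the carnitine transporter, peaked by 0.98, and ACOT7, a thioesterase of long-chain acyl-CoA, by 1.22. SLC22A3, an organic cation transporter that passed the filter on level through 28 dpn alone, was higher by 1.50. None of these 3 was called with the actin covariate. GM2A, a lysosomal lipid-binding cofactor, and HEXA, a subunit of the hexosaminidase it assists, peaked by 1.06 and 0.31, HEXA neither with the actin covariate nor after quantile normalization or centring. No gene of 53 from the cell cycle and DNA replication, 20 from cholesterol synthesis and uptake or 31 from fatty acid and triglyceride synthesis was called in limma, and at an unadjusted p under 0.05 these lists held 0, 0 and 2 genes.

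HAMP had the largest size, against the nearest stage, of the named genes that were called, and it was a trough. Its log2 signal was 1.93 to 12.97 at 28 dpn (median 6.46), against 11.18 to 13.65 at 94 dpc (median 12.51), 9.92 to 14.96 at 1 dpn (median 12.38) and 11.26 to 14.67 at 188 dpn (median 13.68). In 13 of 15 piglets at 28 dpn it was below every array of the other stages, in 1 piglet it was 10.14, and in 1 it was 12.97, well within the range of the other stages. The SD at 28 dpn was 3.03, beside a median SD of 0.345 over all probe-sets tested at that stage, and 5 probe-sets had a larger one. The trough was -5.59 (SE 0.61, adjusted p = 5.95e-09). HAMP exceeded background in 11 of 15 piglets at 28 dpn and in all animals of the other stages, and with values below background raised to it the trough was -5.02. It was called under all 13 alternatives and in all 63 fits without 1 array.

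Of 19 measured genes of iron and copper, each by its brightest probe-set, HAMP alone was called. FTH1 and FTL, the ferritin chains, averaged 15.57 and 15.45 at 28 dpn, against 15.54 and 15.66 at 94 dpc, 15.27 and 15.37 at 1 dpn and 15.69 and 15.56 at 188 dpn. TFRC, the transferrin receptor, was not above background on any 28 dpn array, with a mean of 3.37, against 8.69 at 94 dpc, 6.50 at 1 dpn and 3.04 at 188 dpn. HAMP also belongs to the acute phase list, where LRG1, a secreted glycoprotein, peaked by 0.72 (SE 0.19, adjusted p = 0.0152). LRG1 was not called with the actin covariate, nor after quantile normalization or centring. CRP and HP, acute phase proteins of the pig, averaged 14.49 and 15.55 at 28 dpn and did not pass the test, with highest means of 14.66 at 188 dpn and 16.00 at 1 dpn.

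Urea cycle and amino acid catabolism held 4 of the 32 trough genes. Of 39 measured genes 4 formed a trough, which is 10.3% beside 0.581% of all genes, and 1 peaked (GLUL), which is 2.56% beside 3.23%. The lowest mean was at 28 dpn in 9 genes, which is 23.1% beside 13.5% of all genes. The median difference of the list was 0.89 against 94 dpc, -0.03 against 1 dpn and -0.87 against 188 dpn. ARG1, arginase, the last enzyme of the urea cycle, had a log2 signal of 11.95 to 13.48 at 28 dpn (median 12.26), against 12.63 to 13.58 at 94 dpc (median 13.01), 12.79 to 15.09 at 1 dpn (median 13.96) and 13.36 to 15.04 at 188 dpn (median 13.96). In 13 of 15 piglets at 28 dpn it was below every other array, but 23 arrays of the other stages lay inside the 28 dpn range. The trough was -0.64 (SE 0.18, adjusted p = 0.0294). ARG1 was called in 58 of the 63 fits without 1 array, and not without the filter on level. Against 188 dpn, the other stage sampled after a fast, ARG1 was lower by 1.66 on the log2 scale. OTC, which makes citrulline in the same cycle, had 10.42 to 11.16 at 28 dpn (median 10.71), against 10.41 to 11.84 at 94 dpc (median 11.43), 10.37 to 12.66 at 1 dpn (median 11.31) and 10.98 to 12.25 at 188 dpn (median 11.54), a trough of -0.61 (SE 0.15, adjusted p = 8.75e-03) with 6 other arrays inside the 28 dpn range.

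KYAT1, an aminotransferase of kynurenine and glutamine, formed a trough of -0.57 (SE 0.15), and GOT2, the mitochondrial aspartate aminotransferase, one of -0.29 (SE 0.09, adjusted p = 0.0475). None of the 4 was a trough with the actin covariate, nor after centring of the arrays, where the count of the list was 0. OTC, KYAT1 and GOT2 were not called with the added-RNA covariate either, and GOT2 was called in 23 of the 63 fits without 1 array. After quantile normalization the count was 5, with ARG1 and OTC among them. The further enzymes of the cycle were not at their lowest at 28 dpn. CPS1 averaged 14.02 there, against 13.97 at 94 dpc, 14.48 at 1 dpn and 14.53 at 188 dpn, ASS1 14.62, against 13.05, 14.79 and 15.31, and ASL 11.50, against 10.19, 11.68 and 12.44. TAT, tyrosine aminotransferase, a target of glucocorticoids, averaged 12.67 at 28 dpn, against 13.98 at 94 dpc, 13.30 at 1 dpn and 13.66 at 188 dpn (adjusted p = 0.277).

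NR3C1, the glucocorticoid receptor, had a log2 signal of 5.78 to 7.90 at 28 dpn (median 7.15), against 7.84 to 8.77 at 94 dpc (median 8.26), 7.64 to 8.93 at 1 dpn (median 8.14) and 7.01 to 8.26 at 188 dpn (median 7.61). The trough was -0.59 (SE 0.14, adjusted p = 6.41e-03), with 16 arrays of the other stages inside the 28 dpn range, and it was called in 12 of 12 alternatives that tested the probe-set. A further probe-set of NR3C1 was tested and not called. PTGES3, a co-chaperone of the receptor, peaked by 0.37 (SE 0.09), but not with the actin covariate or after centring. Of the 27 measured genes of glucocorticoid response no other was called in its brightest probe-set, and FKBP5, a target of the receptor, averaged 8.01 at 28 dpn, against 7.41 at 94 dpc, 9.14 at 1 dpn and 8.11 at 188 dpn.

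The other troughs named by size measured 0.57 to 1.03 log2 units, and SLC30A5 alone of them was in a list, that of metallothioneins and zinc. ARHGAP29 was the only named gene besides HAMP past 2-fold, at -1.03 (SE 0.22, adjusted p = 1.61e-03), but was not called after quantile normalization or centring. SLC35F5, a solute carrier of unsettled cargo, lay at -0.82 (SE 0.18) and was called in 2 of its 3 probe-sets. The size was -0.74 (SE 0.19) for SLC30A5, a zinc transporter of the secretory pathway, -0.71 (SE 0.18) for SLC26A6, an anion exchanger, and -0.57 (SE 0.16) for SLC35A3, which brings a sugar nucleotide into the Golgi. OCIAD2, CAVIN2, a protein of caveolae, TOB1, an inhibitor of proliferation, TMEM181, LNPK, PLCD1 and RABGGTB, a subunit of the enzyme that attaches lipid anchors to Rab proteins, lay between -0.74 and -0.59. TOB1 was below every other array in 9 of 15 piglets, and OCIAD2, SLC26A6 and LNPK in 2, 3 and 4. SLC35F5 and RABGGTB were called under all 13 alternatives, whereas LNPK was called under 5 of 12, PLCD1 under 8 of 13 and CAVIN2 under 10 of 13. TOB1, TMEM181, LNPK and PLCD1 were not called with either covariate, and OCIAD2, CAVIN2, SLC26A6 and SLC35A3 not with the actin covariate. Of the 20 troughs named by size 13 were lost with the actin covariate. CAVIN2 was called in 52 of the 63 fits without 1 array.

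**Figure D5:**
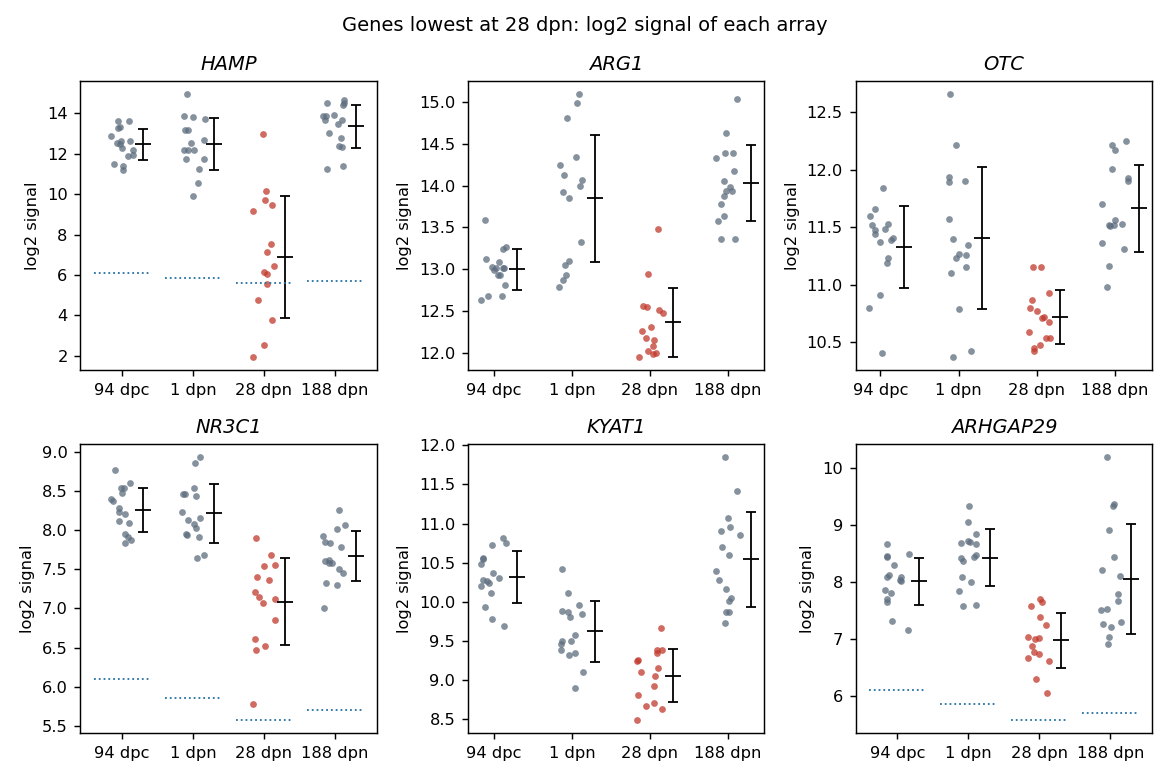
Log2 signal of 6 genes that formed a trough at 28 dpn, drawn as for the peaks: 1 point per array (red, 28 dpn; grey, other stages), mean with SD, and median background as a dotted line where it lies near the data. HAMP spans 1.93 to 12.97 at 28 dpn with 13 of 15 arrays below all others, whereas ARG1, OTC, NR3C1, KYAT1 and ARHGAP29 are shifted by 0.57 to 1.03 and overlap with other stages.

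Of 58 measured cytosolic ribosomal protein genes 27 had their lowest mean at 28 dpn, which is 46.6% beside 13.5% of all genes, and 2 formed a trough (3.45% beside 0.581%), RPS25 with -0.26 and RPL31 with -0.22. The list differed by -0.73 against 94 dpc, -0.01 against 1 dpn and -0.15 against 188 dpn in the median. After quantile normalization the median against 188 dpn was 0.00, and neither gene was called after that or after centring. Of 35 proteasome genes 3 peaked, which is 8.57% beside 3.23% of all genes. These were PSMD4 with 0.43, PSMA4 with 0.37 and PSMB2 with 0.31, and 0 of the 3 were called with either covariate.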

How the data were processed

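Affymetrix porcine arrays, 63 in all, carried liver RNA of single HP offspring. The authors deposited log2 signals of 24123 probe-sets, for which the submitters' processing notes name GCOS 1.1.1. The values behave as MAS5 type signals with each array scaled to 1 trimmed mean, so that signals were not normalized further between arrays, and the GCRMA step of the methods is not in them. For arrays their number and the distance to background limit the precision. Control probe-sets (188) were left out. With R 4.3.3 and limma 3.58.1, 1 mean per stage was fitted to all 63 arrays (lmFit, eBayes), and the largest of the 3 two-sided p-values was adjusted over all 13844 probe-sets tested (Benjamini-Hochberg). Of 200 changes planted in simulated data for all 13844 probe-sets, 84% of those of 1 and 23% of those of 0.5 were recovered. Symbols came from the platform annotation; 7366 probe-sets tested had 1, and probe-sets with several (198 on the array) or none entered no list.

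The genes named were the 20 largest peaks and troughs by size with a signal above background, and up to 4 called members per list. Others were chosen after their values were seen. Members and lists were chosen with earlier results of these data known. Alternatives were quantile normalization, centring, other filters, pairwise fits, a trend, array weights, raised background, covariates, a stricter threshold, and arrays left out. No promoter or protein sequences were used here.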

Additional observations from a re-analysis of the deposited data

How the results depend on the processing

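The 318 peaks and 99 troughs came to 165 and 40 with the actin 3′ to 5′ difference as a covariate, to 199 and 48 at an adjusted p under 0.01, and the troughs to 169 with array weights. Peaks of at least 2-fold numbered 30 with the actin covariate instead of 57. Troughs of at least 2-fold numbered 5 with the actin covariate, 5 with a filter at the 75th percentile, 6 with values below background raised to it and 7 at an adjusted p under 0.01, instead of 11. The other settings tried kept each of these counts within 1.5 times, but not all members: 226 of the 318 peaks and 60 of the 99 troughs were also called after quantile normalization, and 221 and 57 after centring. Leaving out 1 array at a time, chosen after seeing the data, gave 289 to 343 peaks, 82 to 122 troughs, and 52 to 65 and 8 to 14 of at least 2-fold. Troughs among genes of the urea cycle and amino acid catabolism numbered 0 after centring instead of 4, and among ribosomal proteins 0 after quantile normalization and 0 after centring instead of 2, with a median against 188 dpn of 0.0026 after quantile normalization instead of -0.15. The cause was not tested. No named gene changed direction with a call under an alternative. Of the 20 named peaks 14 were called under all alternatives that tested them and 20 without any 1 array. Of the 20 named troughs 5 and 15 were. No paired analysis was possible because the labels number each array once and name no litter. Where signals lie near background, as for SIGLEC1 and HAMP, the size of a difference is uncertain.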

Other observations

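Some troughs lay in a probe-set other than the one of the highest mean, and were singled out after their values were seen. The further probe-set of KYAT1 averaged 3.38 at 28 dpn, against 6.59 at 94 dpc, 6.21 at 1 dpn and 6.52 at 188 dpn, and exceeded background in 0 of 15 piglets at 28 dpn. With the 28 dpn arrays set to their background, its signal at 28 dpn was at least 1.47-fold lower than at 1 dpn, the nearest stage (adjusted p = 5.95e-06 as fitted). Of TSC22D3, a target of the glucocorticoid receptor, a further probe-set averaged 4.82 at 28 dpn, against 6.90, 6.80 and 6.73 at 94 dpc, 1 dpn and 188 dpn (adjusted p = 0.0125) and exceeded background in 5 of 15 piglets, while its brightest probe-set had 11.16, against 11.80, 11.17 and 12.26. Of INSIG1, the sterol-regulated brake on cholesterol synthesis, a further probe-set averaged 6.85 at 28 dpn, against 8.91, 8.57 and 8.62 at 94 dpc, 1 dpn and 188 dpn (adjusted p = 6.74e-05), while its brightest probe-set had 12.60, against 13.90, 11.88 and 13.77. Of ACO1, cytosolic aconitase, which doubles as an iron sensor, a further probe-set averaged 4.83 at 28 dpn, against 9.04, 9.98 and 6.31 (adjusted p = 0.0125) and exceeded background in 6 of 15 piglets, while the brightest had 11.16, against 12.26, 11.72 and 11.10. Of ALDH1A1, which makes retinoic acid, a further probe-set averaged 12.06 at 28 dpn, against 13.14, 13.34 and 13.06 (adjusted p = 1.36e-03), while the brightest had 14.72, against 14.65, 14.31 and 15.19. Which of the probe-sets stands for the gene was not tested. Of the 57 peak probe-sets of at least 2-fold 18 had no single symbol, and of the 11 such troughs 3. The probe-set SscAffx.28.1.S1_at, without a symbol here, averaged 14.51 at 28 dpn, against 15.68, 15.36 and 15.08, and was the 1 probe-set whose 28 dpn arrays lay below all others.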
